A study of Arabidopsis thaliana with 12 samples.

Results

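Transcripts of 4 genes of pigment synthesis in the plastid were followed in wild-type *Arabidopsis thaliana* (ecotype Columbia 0) after high light: the glutamyl-tRNA reductase gene HEMA3 (AT2G31250), the magnesium-protoporphyrin methyltransferase gene CHLM (AT4G25080), the geranylgeranyl reductase gene AT1G74470 and the carotenoid isomerase gene Z-ISO (AT1G10830). They were chosen by name, with earlier results of these data known, as genes with a probe that the platform annotation assigns to them alone. All 4 were found, among 691 such genes and 3438 features (genes or probes) in all. Total RNA of 12 samples was read on an array. The control group (6 samples) came from plants grown at 80 µE, and the recovery group (6 samples) from plants that spent 1 h at 1000 µE before going back to 80 µE. The time back lasted 2 h by the titles and descriptions and 1 h by the source names. No sample carried a mutation or transgene by its label, and the titles give 0 h for the control, so light treatment and time of sampling cannot be told apart.

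Chlorophyll, haem and their relatives are built in the plastid from glutamate carried on a transfer RNA. Glutamyl-tRNA reductase makes the first dedicated step and is the main point at which the flow into the pathway is set. Free intermediates of the pathway are photosensitisers in light. After protoporphyrin the route divides into a haem branch with iron and a chlorophyll branch with magnesium. CHLM adds a methyl group to magnesium-protoporphyrin in the chlorophyll branch. Geranylgeranyl reductase acts at the end, where it turns the geranylgeranyl chain into the phytyl tail of chlorophyll and of tocopherols. Carotenoids share the geranylgeranyl precursor. Z-ISO works early in that route, where it isomerises zeta-carotene between the steps of the 2 desaturases, a change that light can partly bring about without the enzyme.

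For none of the 4 transcripts was a difference between recovery and control plants detected above the spread between samples. With limma, 0 of 4 passed an adjusted p under 0.05, against 3.03% of all 3438 features, and 0 of 4 did with the replicate number as a block, against 3.08%. For 0 of 4 did the values of the groups stand apart without overlap, against 4.42% of features, and 0 of 4 had an unadjusted p under 0.05, against 18.3% of all features. The limma estimate of recovery over control was 1.56-fold for CHLM (95% interval 0.883 to 2.77), 1.02-fold for AT1G74470 (0.67 to 1.55), 0.789-fold for HEMA3 (0.507 to 1.23) and 0.914-fold for Z-ISO (0.536 to 1.56). These intervals treat the 12 samples as independent. Within a group, however, the samples numbered 1 and 2 were alike, as were 3 and 4, and 5 and 6. Separate plants are not named by any label, so the p-values cover only a spread that may be technical. With these pairs as a random block the intervals were 0.632 to 3.87 for CHLM and 0.629 to 1.65 for AT1G74470. For HEMA3 they were 0.479 to 1.30 and for Z-ISO 0.458 to 1.82. A 2-fold difference lay outside this interval in either direction for AT1G74470 alone. The block takes 1 correlation within pairs, 0.663, for all features. With averaged pairs the standard error of AT1G74470 was 0.43 on the log2 scale, instead of 0.32. A 2-fold difference is therefore not taken as excluded for this gene. The random-block fit called 0 of the 4 genes and 3 features in all, 0.0873%. With shares this low, a count of 0 among so few genes does not set them apart from the rest of the array.

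**Figure D1:**
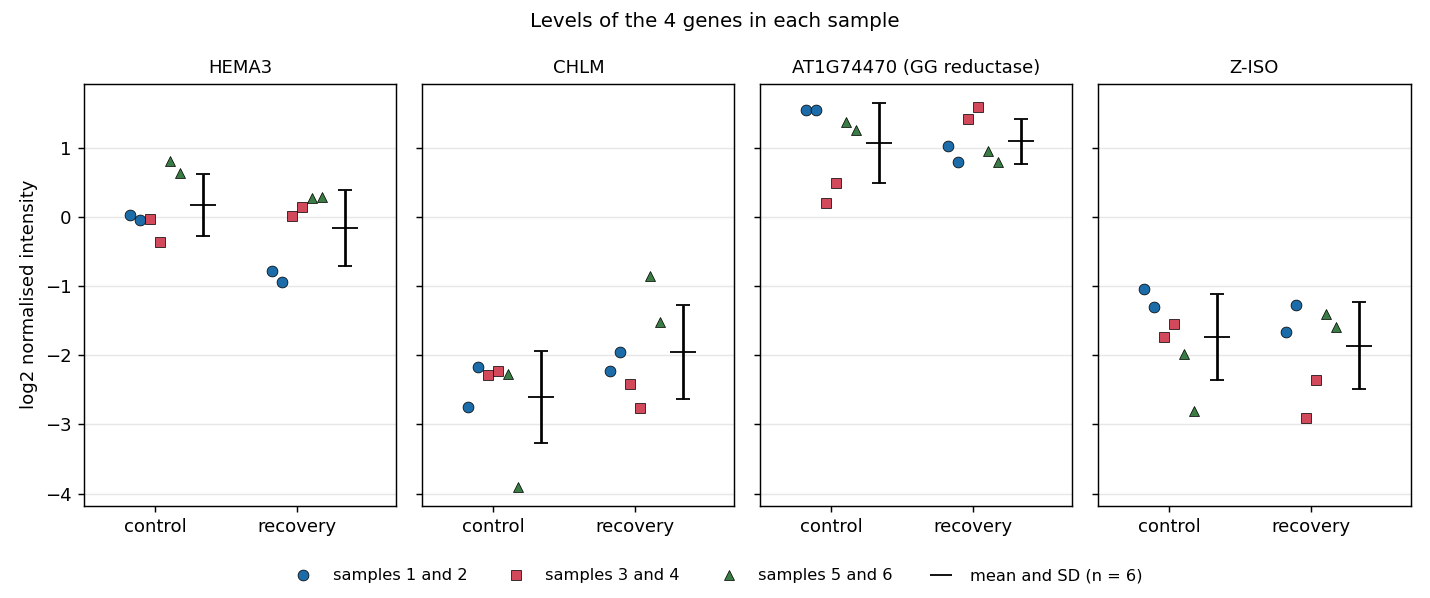
Log2 normalised intensity (vertical axis) of HEMA3, CHLM, the geranylgeranyl reductase gene AT1G74470 (GG reductase) and Z-ISO in the 6 control and 6 recovery samples, with the mean and SD of each group beside the points and the pairs of samples marked by colour and shape. The groups overlap for all 4 genes, and the points of most pairs lie close together, with control 5 and 6 for CHLM (-2.27 and -3.90) the widest apart. Heights are not comparable between panels, since each gene has its own probe.

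The deposited intensities run from 0 to 100 with column medians of 0.196 to 0.458, and 171 to 383 of 3439 probes per sample are listed at 0. The values below are log2 of quantile-normalised intensities, on which a lower bound of -5.07 was set. All 48 values of the 4 genes stood above it. The leaf genes LHB1B2, PRK, PSAN and PSBW were above the array's median in 12 of 12 samples and SBPASE in 10. Recovery samples 1, 2, 5 and 6 have the higher column medians, 0.426 to 0.458, against 0.196 to 0.284 in the other 8 samples. The part of this shift in the results of all 12 samples is shown by the other scalings given below.

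HEMA3, the early step, had log2 levels of 0.03, -0.04, -0.02, -0.36, 0.82 and 0.64 in control samples 1 to 6. In recovery samples 1 to 6 it had -0.78, -0.94, 0.02, 0.15, 0.28 and 0.30. Recovery 1 and 2 lay below every control sample, while recovery 3 to 6 lay within the control range. The group means were 0.18 ± 0.45 and -0.16 ± 0.55 (SD, n = 6 each), a log2 fold change of -0.34 ± 0.29 (SE) (limma, adjusted p = 0.577). The medians, 0.00 in control and 0.08 in recovery, stood in the other order. The log2 fold change of HEMA3 was -0.09 ± 0.30 (SE) without samples 1 and 2 of both groups, -0.65 ± 0.37 without samples 3 and 4 and -0.29 ± 0.29 without samples 5 and 6, and it was not called in any of these fits (limma, adjusted p = 0.905, 0.329 and 0.659). The first and last of these settings, here and for the other genes, were chosen after the values were seen. The setting without samples 3 and 4 was listed beforehand, but with earlier results of these data known, and no label sets these samples apart. HEMA3 had a lower value in recovery for 4 of 6 replicate numbers, with differences from -0.90 to 0.50. HEMA1, known as the form for photosynthetic tissue, and HEMA2 are its sister genes. The annotation assigned no probe to either of them, alone or with other genes. Whether the HEMA3 probe also reads their transcripts was not tested.

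CHLM, the methyltransferase of the chlorophyll branch, had log2 levels of -2.74, -2.16, -2.29, -2.22, -2.27 and -3.90 in control samples 1 to 6. In recovery samples 1 to 6 it had -2.23, -1.95, -2.41, -2.76, -0.85 and -1.51. Recovery 5 and 6 were the highest of all 12 samples and recovery 4 lay below 5 of the 6 controls. The means were -2.60 ± 0.67 and -1.95 ± 0.68 (SD, n = 6 each), a log2 fold change of 0.65 ± 0.38 (SE) (limma, adjusted p = 0.397). At that standard error (SE) a log2 difference of 1.56 would have been needed for a call. The pair 1 and 2 differed by 0.37, the pair 3 and 4 by -0.33 and the pair 5 and 6 by 1.90. Without samples 1 and 2 of both groups the log2 fold change of CHLM was 0.79 ± 0.55 (SE), without samples 3 and 4 it was 1.13 ± 0.46, and without samples 5 and 6 it was 0.02 ± 0.24 (limma, adjusted p = 0.502, 0.169 and 0.992). The size for CHLM thus varied with the pairs that were kept, and no such fit called it. With the pairs as a random block and without samples 3 and 4 its adjusted p was 0.416 with limma.

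AT1G74470, the late step that makes the phytyl chain, had a log2 fold change of 0.03 ± 0.28 (SE) (limma, adjusted p = 0.974). Its control samples 1 to 6 stood at 1.55, 1.55, 0.21, 0.50, 1.38 and 1.26 and its recovery samples at 1.04, 0.80, 1.42, 1.60, 0.96 and 0.80. Control 3 and 4 were the lowest samples of all and recovery 4 the highest, with recovery 3 above 4 of 6 controls. The means, 1.08 ± 0.58 in control and 1.10 ± 0.33 in recovery (SD, n = 6 each), thus hide differences of opposite sign. Recovery minus control was -0.63 for the pair 1 and 2, 1.15 for the pair 3 and 4 and -0.44 for the pair 5 and 6. The 2 samples of a pair differed by at most 0.29, less than any of these.

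Without samples 3 and 4 of both groups, AT1G74470 was 1.45-fold higher in control plants, with means of 1.44 ± 0.14 in control and 0.90 ± 0.12 in recovery (SD, n = 4 each). Every one of these 4 control samples lay above every one of the 4 recovery samples. Among those 8 samples the groups were apart in this way for 20.7% of all features. The log2 fold change was -0.54 ± 0.13 (SE) and passed the limma test (adjusted p = 0.0398), in a fit that called 12.1% of all features. No label gives a reason to leave out samples 3 and 4, so this is not a call from a setting fixed blind to the data. With the pairs as a random block in the same 8 samples, a fit chosen after the values were seen, AT1G74470 had an adjusted p of 0.134 with limma and 3.23% of features were called. Without samples 1 and 2 its log2 fold change was 0.36 ± 0.35 (SE), and without samples 5 and 6 it was 0.26 ± 0.38 (limma, adjusted p = 0.633 and 0.768). The result for this gene therefore depends both on samples 3 and 4 and on whether the samples of a pair are counted singly. Without samples 3 and 4, the recovery samples left are those with the higher column medians, 0.426 to 0.458. The medians of the controls left were 0.2 to 0.284. In the deposited values the lowest of these controls stood at 2.03 and the highest of these recovery samples at 2. The other scalings were not fitted without samples 3 and 4.

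Z-ISO, the carotenoid step, had log2 levels of -1.04, -1.30, -1.73, -1.54, -1.98 and -2.81 in control samples 1 to 6. Its recovery samples 1 to 6 had -1.66, -1.27, -2.91, -2.35, -1.40 and -1.59. Recovery 3 was the lowest of the 12 samples and control 6 the next, so each group held 1 of the 2 lowest samples. The means were -1.73 ± 0.62 and -1.86 ± 0.63 (SD, n = 6 each), a log2 fold change of -0.13 ± 0.35 (SE) (limma, adjusted p = 0.883). Recovery was higher for 3 replicate numbers and lower for 3. By pair, recovery minus control came to -0.30 for 1 and 2, -0.99 for 3 and 4 and 0.90 for 5 and 6. The log2 fold change of Z-ISO was -0.05 ± 0.43 (SE) without samples 1 and 2, 0.30 ± 0.38 without samples 3 and 4 and -0.64 ± 0.38 without samples 5 and 6, with no call (limma, adjusted p = 0.973, 0.68 and 0.483).

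**Figure D2:**
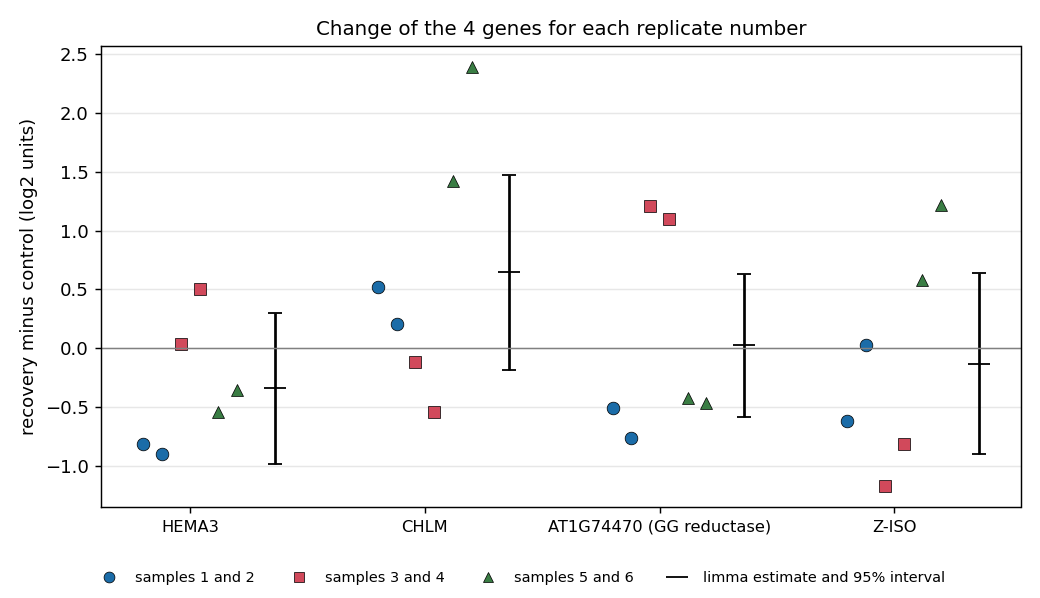
Recovery minus control in log2 units (vertical axis) for each replicate number, for the 4 genes, with the limma estimate and its 95% interval in black. For AT1G74470 the samples 3 and 4 lie at 1.21 and 1.10 and the other 4 numbers between -0.76 and -0.42, and for CHLM the samples 5 and 6 lie at 1.42 and 2.39.

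Between the lowest and the highest pair mean, the control group spanned 0.92 for HEMA3, 0.83 for CHLM, 1.20 for AT1G74470 and 1.23 for Z-ISO on the log2 scale, and the recovery group 1.14, 1.40, 0.63 and 1.16. The 2 samples of a pair differed at the median by 0.14 for HEMA3, 0.46 for CHLM, 0.17 for AT1G74470 and 0.32 for Z-ISO, and at most by 0.33, 1.63, 0.29 and 0.82. For CHLM, control 5 and 6 thus lay farther apart than the means of the control pairs. No gene of the 4 had the same sign of change in all 3 pairs. Of all features 33.7% did, and with only 4 genes this does not set them apart. In HEMA3, CHLM and AT1G74470 the sign in samples 3 and 4 was opposite to that in both other pairs, which was so for 30.8% of all features.

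**Figure D3:**
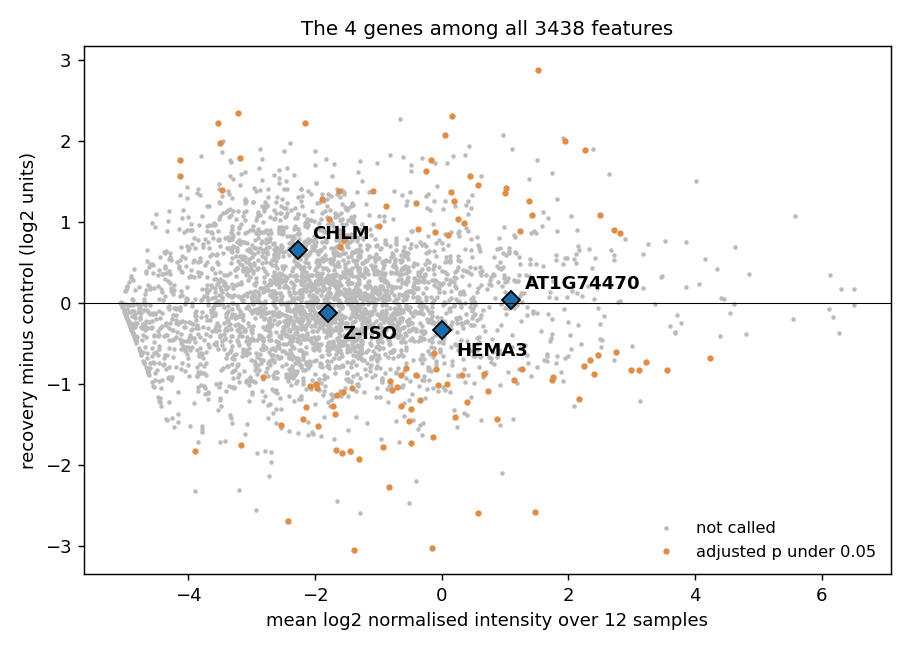
Recovery minus control in log2 units (vertical axis) against the mean log2 normalised intensity over 12 samples (horizontal axis), with 1 point per feature. The 104 features with an adjusted p under 0.05 are in orange, and the 4 genes, in blue, lie between -0.34 and 0.65 among features that were not called.

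Set against the array as a whole, the changes were ordinary in size. The median change over all features was -0.02 on the log2 scale, with the 5th and 95th percentiles at -1.05 and 1.17. The absolute change of CHLM was larger than that of 67.2% of features, that of HEMA3 larger than 40.9%, that of Z-ISO larger than 16.4% and that of AT1G74470 larger than 3.9%. The SD within groups was 0.68 for CHLM, 0.63 for Z-ISO, 0.50 for HEMA3 and 0.47 for AT1G74470, below the median of 0.75 over all features. In mean level AT1G74470 stood above 94.7% of features, HEMA3 above 87.3%, Z-ISO above 52.4% and CHLM above 40.4%. These are levels of probes, which do not rank the amounts of the transcripts. Spread was not compared with features of like level.

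The early and late steps were then set side by side, as differences of log2 change within a replicate number, with no test. The numbers fall into pairs of like samples, so counts over 6 numbers overstate the independent units. The change of AT1G74470 minus that of HEMA3, late against early, averaged 0.37 ± 0.46 (SD over 6 numbers) and was above 0 for 5 of 6. Both genes were lower in recovery in samples 1, 2, 5 and 6. The change of CHLM minus that of HEMA3 averaged 0.99 ± 1.38 and was above 0 for 4 of 6 numbers, from -1.04 to 2.73. Between the 2 genes of the chlorophyll branch, CHLM minus AT1G74470, it averaged 0.62 ± 1.77. CHLM minus Z-ISO averaged 0.78 ± 0.44, a spread close to that of AT1G74470 minus HEMA3. CHLM was above Z-ISO for 6 of 6 numbers. CHLM had the higher change for 6 of 6 numbers against 14.9% of the 690 other genes with their own probe. Z-ISO had the lower change for 6 of 6 numbers against 45 of its 690 other genes. Between HEMA3 and the later steps of CHLM and AT1G74470, no order of the changes held for all 6 numbers. For the counts of 5 of 6 and 4 of 6, no share over other genes was taken.

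Of 85 genes listed for tetrapyrrole, carotenoid, isoprenoid and tocopherol synthesis and for chlorophyll breakdown, 7 had a probe of their own, and 0 passed the limma test in either direction, where 3.03% of all features did. Beside the 4 genes these were SIRB, AT5G63290 and AT1G78620. SIRB, the ferrochelatase that puts iron into sirohaem, had means of -3.47 ± 1.32 in control and -2.96 ± 0.84 in recovery (SD, n = 6 each), a log2 fold change of 0.51 (limma, adjusted p = 0.691). For SIRB 2 of 6 control values were at the lower bound, so its size is not interpretable. AT5G63290, listed with the early steps, had a log2 fold change of -0.37 ± 0.38 (SE) (limma, adjusted p = 0.641). AT1G78620, listed with tocopherol synthesis, had one of -0.11 ± 0.23 (SE) (limma, adjusted p = 0.83). Its controls ran from -0.49 to -0.12 and its recovery samples from -1.27 to -0.02. A further 4 listed genes, all of early tetrapyrrole steps, share 2 probes with each other and were not called. The probe of HEMB1 and HEMB2 had a log2 fold change of 0.58 ± 0.34 (SE) (limma, adjusted p = 0.4). That of HEME1 and HEME2 had one of -0.02 ± 0.24 (limma, adjusted p = 0.973). The estimates for early steps thus did not share a direction, with HEMA3 and AT5G63290 below 0 and the HEMB probe above. The lists of later carotenoid steps (12 genes), haem and bilin synthesis (6), chlorophyll breakdown (10) and isoprenoid supply (10) had 0 members with a probe of their own.

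The genes with the most similar profiles were found by the root mean square difference of log2 values over the 12 samples, after each gene's own mean was taken off. For AT1G74470 these were the cyanase gene CYN (0.23), the photosystem I subunit gene PSAN (0.30) and the photosystem II subunit gene PSBW (0.38), where the median over 690 genes was 0.93. In the pairs 1 and 2, 3 and 4, and 5 and 6 in that order, the change was -0.47, 0.65 and -0.64 for CYN, -0.55, 1.03 and -0.40 for PSAN and 0.00, 1.22 and -0.16 for PSBW. For CHLM the closest was the glyoxalase gene GLX2-1 (0.43), followed by AT4G29890 (0.46) and AT4G22370 (0.48), against a median of 1.02. By pair the change was 1.09, -0.75 and 1.96 for GLX2-1, 0.68, -0.43 and 1.45 for AT4G29890 and 0.20, 0.70 and 2.01 for AT4G22370, the last with no change of sign. For HEMA3 they were AT1G02260 (0.28), AT2G47360 (0.31) and AT2G44760 (0.36), and for Z-ISO AT4G00590 (0.32), AT4G01310 (0.38) and AT5G38310 (0.38), against medians of 0.94 and 0.95. Around HEMA3 the changes by pair were -0.62, 0.02 and -0.01 for AT1G02260, -0.39, -0.22 and -0.23 for AT2G47360 and -0.43, -0.30 and 0.17 for AT2G44760. Around Z-ISO they were 0.34, -1.38 and 0.74 for AT4G00590, 0.18, -0.82 and 0.17 for AT4G01310 and -0.06, -0.74 and -0.12 for AT5G38310. The 12 genes were picked for likeness over these same samples, so shared signs are no separate observation. Limma called 0 of the 12, where it called 3.03% of all features.

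**Figure D4:**
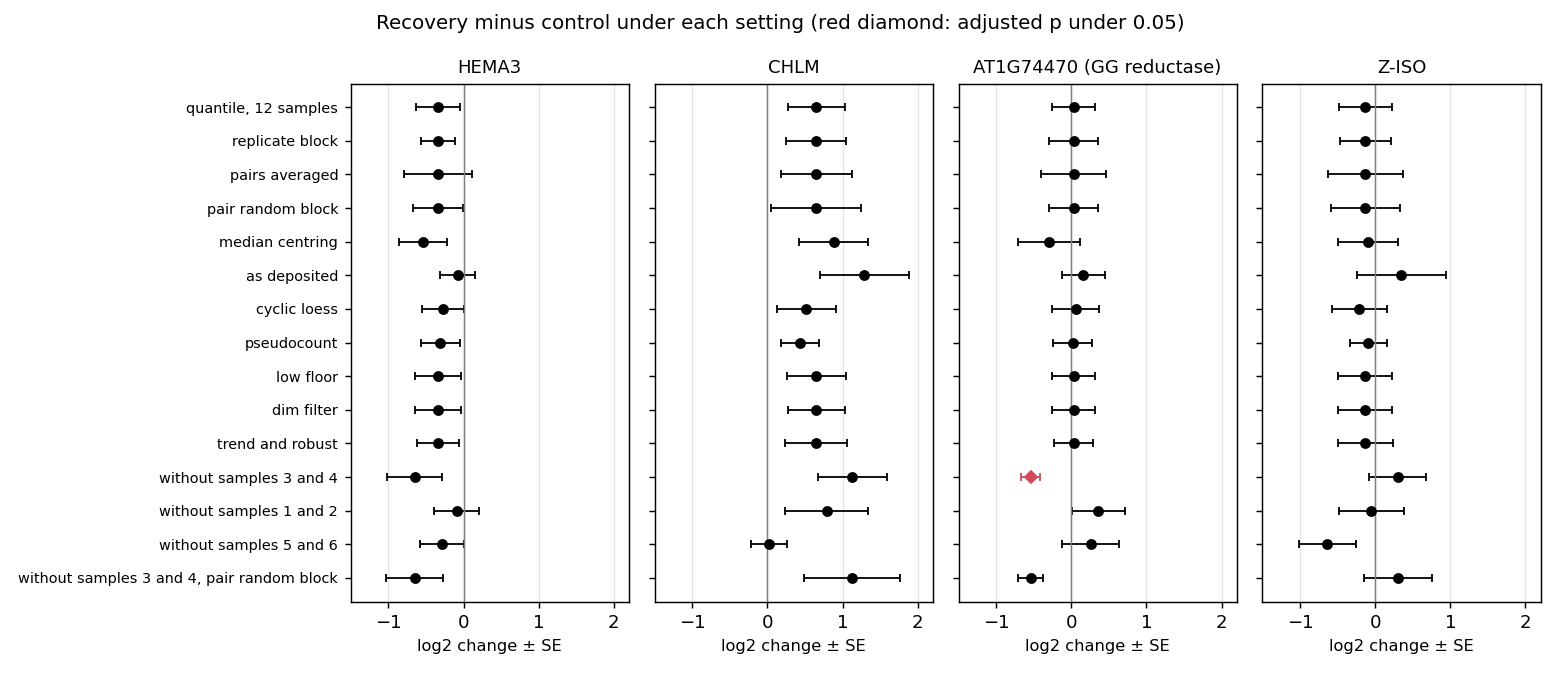
Log2 change with its standard error (horizontal axis) for the 4 genes under the main setting (quantile, 12 samples) and 14 other settings, 1 per row. A red diamond marks an adjusted p under 0.05, which occurs once, for AT1G74470 without samples 3 and 4 (-0.54).

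None of the 4 genes was called under the other 3 scalings, while the sizes moved. On the deposited scale, where all features had a median change of 0.43, CHLM had a log2 fold change of 1.29, HEMA3 one of -0.08, AT1G74470 one of 0.16 and Z-ISO one of 0.35. Less that median they were 0.86, -0.51, -0.27 and -0.08. The sign of AT1G74470 relative to all features was thus positive under quantile and cyclic loess normalisation (0.05 and 0.10) and negative on the deposited scale and after median centring (-0.27 and -0.32). CHLM stayed above and HEMA3 and Z-ISO below the median of all features in these 4 scalings.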

How the data were processed

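Linear intensities from an array of total RNA were deposited. The sources used here give neither the array type nor the background correction, nor whether the authors scaled the columns. Groups and replicate numbers come from the titles. The columns were quantile-normalised, a floor was set at 0.0298, the 5th percentile of positive values, and the result was put on the log2 scale. Of 3439 probes, 692 were assigned to 1 gene, 870 to more than 1, and 1877 had no name here; 690 of the 692 matched the TAIR10.1 gene table by gene number. The 2 probes of 1 gene were averaged. Groups were compared with limma 3.58.1 (R 4.3.3), lmFit and eBayes over all 12 samples and 3438 features, two-sided, with Benjamini-Hochberg adjustment and a threshold of 0.05. The fit was tested on simulated data. The simulated samples were independent of each other, so that test does not cover the likeness within pairs seen here. Intensities give no read depth, so the number of arrays limits the precision.

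The replicate number ends each title. Deviations from the group means correlated, across features, at 0.11 to 0.462 between like-numbered samples and at -0.229 to 0.00796 where the pair differed. Over the array as a whole the samples therefore count as paired by number. The 4 genes did not all follow this. Like-numbered samples deviated to the same side for 4 of 6 numbers in HEMA3, 3 in CHLM, 2 in Z-ISO and 0 in AT1G74470. Samples of one pair but unlike number gave 0.0814 to 0.168 across groups. The fit with that block is an alternative. Other alternatives were averaged pairs, a random block for pairs, 3 other scalings, a pseudocount of 0.1, a 1st percentile floor, a filter on dim features, a trend with robust variances, and samples left out. The text names the 4 genes, the listed pathway genes with their own probe and the 3 closest profiles per gene. Members and lists were chosen with earlier results of these data known, and the pathway list was written from memory.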

Additional observations from a re-analysis of the deposited data

Results flagged for a closer look

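For CHLM, control 6 stood below the other controls, at -3.90 against -2.74 to -2.16 on the log2 scale. Its gap to the nearest control was 0.665 of the group's range, above Dixon's 95% critical value for 6 samples. Of 8 groups searched (4 genes, 2 groups) 1 was past that value, where chance gives about 5% for independent values. Without control 6 the log2 fold change of CHLM was 0.39. Control 6 was also the lowest control for Z-ISO (-2.81), with a gap share of 0.466.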

How the results depend on the processing

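HEMA3 stayed below 0 and uncalled under all 26 other settings (-0.65 to -0.08), and CHLM stayed above 0 and uncalled (0.02 to 1.29). AT1G74470 changed sign after median centring (-0.30) and without samples 3 and 4 of both groups (-0.54, adjusted p = 0.0398 with limma, and 0.134 with the pairs as a random block). Leaving out 1 sample at a time moved it from -0.15 to 0.12, below 0 without control 3 (-0.15), control 4 (-0.09), recovery 3 (-0.04) or recovery 4 (-0.07). Z-ISO changed sign on the deposited scale (0.35) and without samples 3 and 4 (0.30, in both fits). Leaving out 1 sample moved it from -0.34 to 0.08, above 0 without control 1 (0.01) or recovery 3 (0.08). The cause of these changes of sign was not tested.

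The replicate block changed no call of the 4 genes: the adjusted p was 0.394 for HEMA3, 0.364 for CHLM, 0.975 for AT1G74470 and 0.853 for Z-ISO with limma, and 106 features passed. Over all features, 104 were called in the main setting, 0 with averaged pairs (203 at an unadjusted p under 0.05), 3 with the pairs as a random block, 60 with cyclic loess, 69 with the filter on dim features and 71 with the 1st percentile floor. Leaving out 1 sample gave 42 to 93. Without samples 3 and 4 of both groups 416 were called, without 1 and 2 28, and without 5 and 6 10; the last 2 settings and the random block without samples 3 and 4 (111 calls) were chosen after seeing the data. The calls were 41 higher and 63 lower in the main setting, 29 and 78 after median centring and 79 and 30 as deposited. Differences near the lower bound are understated.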
